A study of Homo sapiens with 4 samples.

Results

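Dystrophin and its membrane complex were represented by 9 genes, DMD, UTRN, DAG1, SGCB, SGCD, SGCE, SNTB1, DTNA and DTNB, out of 16933 genes with a value on the arrays. The genes were picked by name for their roles in the complex after Doxy against No Doxy values of these same arrays were known. The values that chose them are therefore given as a description with no test. They were read through 333 of the 261273 probe sets that are paired with exactly 1 gene symbol, a probe set being a small group of probes for 1 stretch of an exon.

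RNA was profiled on 4 Affymetrix Human Exon 1.0 ST arrays to compare gene expression and splicing after knockdown of SRSF3, a serine/arginine-rich splicing factor. The Doxy group (2 arrays) was A2780/SRSF3si2 cells given doxycycline (Doxy) at 0.1 μg/ml for 3 days, which switches on an siRNA against SRSF3. The No Doxy group (2 arrays) was the same cells without the drug. A2780 is a human ovarian cancer cell line, and the subline in both groups carried the inducible siRNA construct. Cells with a control siRNA given Doxy were not analysed here, so the drug and the knockdown cannot be told apart. No label says that the 2 arrays of a group came from separate cultures, and adjusted p-values may therefore measure technical spread only.

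In muscle, dystrophin ties the actin cytoskeleton beneath the membrane to dystroglycan, which crosses the membrane and binds laminin outside the cell. The sarcoglycans brace dystroglycan within the membrane, and the dystrobrevins and syntrophins sit on the inner face, where they bring in channels and signalling enzymes. Utrophin is the dystrophin relative found in most cells outside muscle. The DMD gene is one of the longest human genes and has several start sites. The cortical, muscle and Purkinje-cell starts give full-length dystrophin, and starts further inside the gene give shorter proteins that keep the C-terminal end.

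The starts of full-length dystrophin are shown as a description of the gene, and the use of any start was not tested. The utrophin start is set beside them as that of the closest relative. Each sequence holds the 120 bases just before a RefSeq start (build GRCh38.p14), 5′ to 3′ on the strand of the gene, and capitals mark the motif that was found. Starts 1, 2 and 3 of DMD are those known as the cortical, muscle and Purkinje-cell starts, on the minus strand of chromosome X.
DMD start 1, chrX:33339389-33339508: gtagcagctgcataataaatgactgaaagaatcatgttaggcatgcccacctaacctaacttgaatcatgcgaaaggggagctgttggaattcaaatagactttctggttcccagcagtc
DMD start 2, chrX:33211550-33211669: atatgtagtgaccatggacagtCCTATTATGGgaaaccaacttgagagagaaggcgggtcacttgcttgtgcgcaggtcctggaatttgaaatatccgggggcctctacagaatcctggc
DMD start 3, chrX:33128429-33128548: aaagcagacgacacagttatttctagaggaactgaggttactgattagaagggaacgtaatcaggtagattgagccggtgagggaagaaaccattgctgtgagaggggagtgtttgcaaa
UTRN start 1, plus strand, chr6:144285215-144285334: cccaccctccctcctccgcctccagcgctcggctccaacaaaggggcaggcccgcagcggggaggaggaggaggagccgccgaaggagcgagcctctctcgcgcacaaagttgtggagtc
The list of RefSeq starts used here, which may not hold every start, covered 7 of the 9 genes, all but SGCE and SNTB1. It held 6 distinct starts for DMD. The GC content of those 6 windows was 43.3%, 50.0%, 45.0%, 39.2%, 46.7% and 42.5% from the outermost start inwards, against 70.0% at the first utrophin start and a median of 60.0% over 35116 listed starts. Both strands of the 7 windows were searched for TATAAA, for GGGCGG and for the CArG box, the motif read by serum response factor. The 1 match was the CArG box at the muscle start of DMD. Windows of this length held TATAAA in 5.63%, GGGCGG in 34.0% and a CArG box in 0.664% of all listed starts. A match of letters is a description and no evidence of binding.

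SRSF3 itself read 7.84 and 7.97 in the Doxy arrays, against 8.50 and 8.33 in the No Doxy arrays, a log2 difference of -0.51 (SE 0.18). Both Doxy arrays were lower, as in 21.8% of all genes tested. The difference did not pass the test across genes (adjusted p = 0.129, limma with Benjamini-Hochberg adjustment). It passed in 2 of 14 settings, with centred arrays (-0.67, adjusted p = 0.0376 from limma) and after quantile normalization (-0.64, adjusted p = 0.0462 from limma), and was -0.21 with the median of its probe sets. Over the settings its adjusted p ranged between 0.0376 and 0.710. Throughout, a gene value is the mean log2 signal of the gene's probe sets, and a difference is the Doxy mean minus the No Doxy mean. Array medians were 5.18 and 5.38 with Doxy, against 5.20 and 5.04 without. Centring each array on its median lowers every difference by 0.16. Probe set values correlated at r = 0.969 between the Doxy arrays, at 0.947 between the No Doxy arrays and at 0.934 to 0.949 across groups. The median difference over all 16634 genes tested was 0.03. As in any bulk sample, fewer cells of a type and less RNA per cell cannot be told apart.

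DMD, which encodes dystrophin, was the gene of the complex with the highest difference. Its value was 6.59 and 6.17 in the Doxy arrays, against 4.98 and 5.02 in the No Doxy arrays. Both Doxy arrays lay above both No Doxy arrays, as in 30.5% of all genes. The log2 difference was 1.39 (SE 0.20), a 2.61-fold higher signal in SRSF3-knockdown cells. Over 11 settings it ranged between 1.18 and 1.59. The other 8 genes differed by -0.50 to 0.17. DMD was the 1 member called higher by limma at an adjusted p under 0.05, where 5.67% of all genes tested were called higher, and 0 members were called lower, where 1.7% were (7.36% in either direction). It was also the 1 member called by diffSplice, limma's test of whether the probe sets of a gene differ unequally, where 2.46% of genes were called. The limma call was lost without either No Doxy array, when 0 genes of the whole table were called. DMD was also not called with the median of probe sets, where 164 genes were called higher, or by a t-test of each gene, where 0 were. The counts of members come from the contrast that chose the genes.

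**Figure D1:**
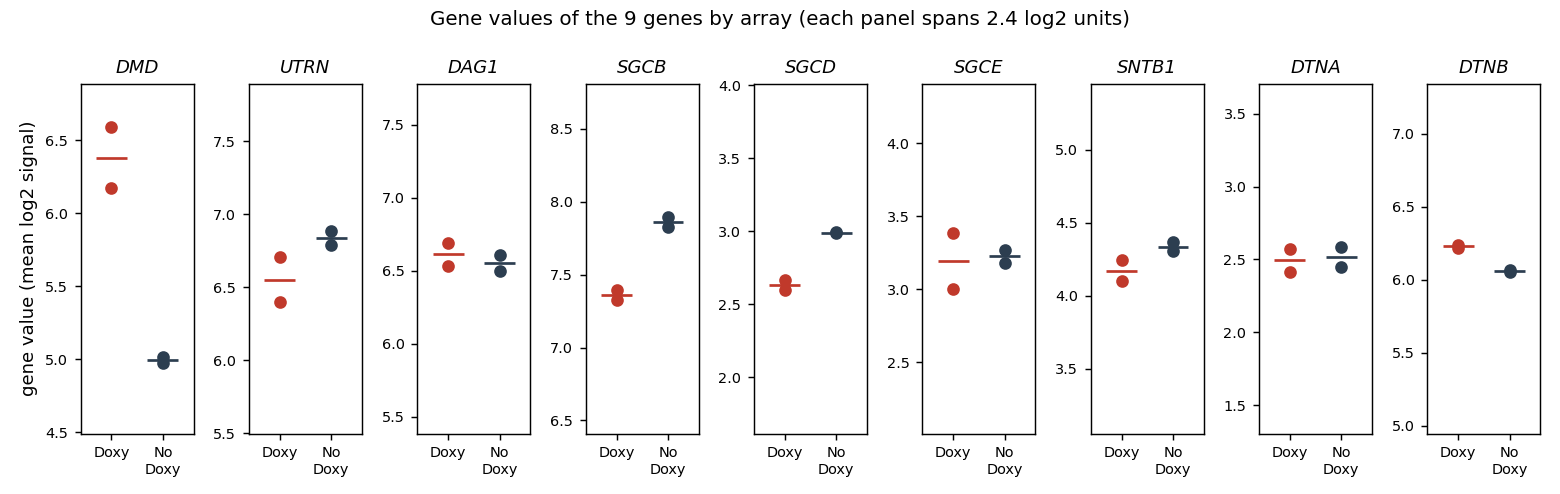
Gene value (mean log2 signal of the gene's probe sets) of each of the 9 genes, with Doxy arrays left and No Doxy arrays right. Points are arrays (2 per group) and bars are group means. The DMD arrays separate by the widest distance, with 6.59 and 6.17 in the Doxy arrays against 4.98 and 5.02 in the No Doxy arrays. DAG1, SGCE and DTNA overlap.

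The DMD difference was unequal along the gene. Of its 108 probe sets, 76 (70.4%) had both Doxy arrays above both No Doxy arrays, 5 had both below and 27 overlapped. Over all probe sets of the array, 26.4% lay above and 19% below in this way. The median over the DMD probe sets was 1.69 and the range -0.90 to 3.55. To place them, probe sets were put in the order of their ID numbers. Where genes share a probe set, ID order followed the genome in 35 of 35 pairs on the minus strand and 48 of 49 on the plus strand. Over 243 minus-strand genes of chromosome X, median probe set ID and gene position had a rank correlation of 0.912. Both checks compare genes and not the probe sets within 1 gene. DMD lies on the minus strand, so its low IDs are inferred to be the 3′ end and its high IDs the 5′ end. Positions of single probe sets in exons were not used here, and which start lies in which stretch was not determined.

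The 108 probe sets were cut into 4 segments of 27 in ID order. In segment 1, at the inferred 3′ end, the mean signal was 4.96 and 4.86 in the Doxy arrays, against 4.81 and 4.61 in the No Doxy arrays, a difference of 0.20. Here the groups were close, with 8 probe sets above and 4 below. In segment 2, the Doxy arrays read 4.71 and 4.06, against 3.29 and 3.06 for No Doxy, a difference of 1.21. This segment was mixed, with 18 probe sets above, 1 below and 9 among the dimmest of the array. Segment 3 read 7.98 and 7.59 with Doxy, against 5.43 and 5.63 without, a difference of 2.26, and 26 of its 27 probe sets lay above. Segment 4 read 8.71 and 8.19 with Doxy, against 6.37 and 6.77 without, a difference of 1.88, with 24 of 27 above and 0 below. The higher difference was thus carried by the probe sets away from the inferred 3′ end. As background, short dystrophin forms lack the exons of the 5′ side, whereas most forms share those near the 3′ end.

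**Figure D2:**
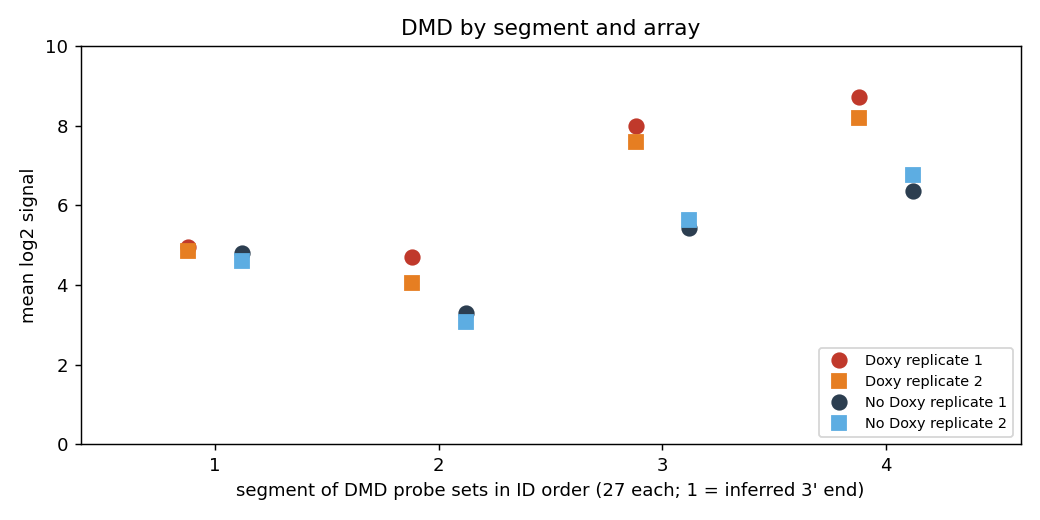
Mean log2 signal of the 27 DMD probe sets in each segment of the ID order (x axis, 1 being the inferred 3′ end), with Doxy arrays (left of each pair) and No Doxy arrays (right). The groups are 0.20 apart in segment 1 and 2.26 apart in segment 3. Heights of different segments come from different probes and are not comparable.

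Unbroken stretches showed the same. The longest run in which every probe set had both Doxy arrays above both No Doxy arrays held 37 probe sets, 4004311 to 4004399. A further 24 in a row were 4004212 to 4004309. The last 3 probe sets, at the inferred 5′ tip and chosen after their values were seen, broke this pattern. They overlapped between groups, with differences of -0.47 at 4004412, 0.89 at 4004413 and -0.08 at 4004414, and 4004413 and 4004414 were dim. Splitting DMD in its middle gave 0.70 for the low IDs and 2.07 for the high IDs, a gap of 1.37. That gap ranked 4 of 609 genes with at least 40 probe sets, of which 1.64% had a gap of 1 or more in either direction. The ranking uses the contrast that chose DMD and is a description.

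The 3 DMD probe sets with the highest differences all lay in segments 3 and 4. Probe set 4004300 read 6.50 and 6.43 in the Doxy arrays, against 2.83 and 2.99 in the No Doxy arrays, a difference of 3.55. Probe set 4004389 read 8.11 and 7.50 with Doxy, against 3.66 and 5.10 without, a difference of 3.43. Probe set 4004303 read 6.52 and 5.86 with Doxy, against 2.85 and 3.26 without, a difference of 3.13. In none of these did the groups overlap, although the No Doxy arrays of 4004389 were far apart. The 3 lowest were close together in segment 1. Probe set 4004051 read 5.81 and 6.33 with Doxy, against 6.82 and 7.11 without, a difference of -0.90. Probe set 4004058 read 5.80 and 6.33 with Doxy, against 6.84 and 7.04 without, a difference of -0.87. Probe set 4004055 read 5.46 and 5.34 with Doxy, against 6.42 and 5.73 without, a difference of -0.67. These 3 probe sets, close to the inferred 3′ end, were lower in both Doxy arrays, opposite to the gene value.

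A general tilt of RNA quality along transcripts was looked at over 9152 genes. The median gap between the inferred 5′ and 3′ sides was 0.22 and 0.21 in the Doxy arrays, against 0.21 and 0.15 in the No Doxy arrays. The median change of that gap was 0.04. The part of RNA quality in the DMD difference was not tested.

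**Figure D3:**
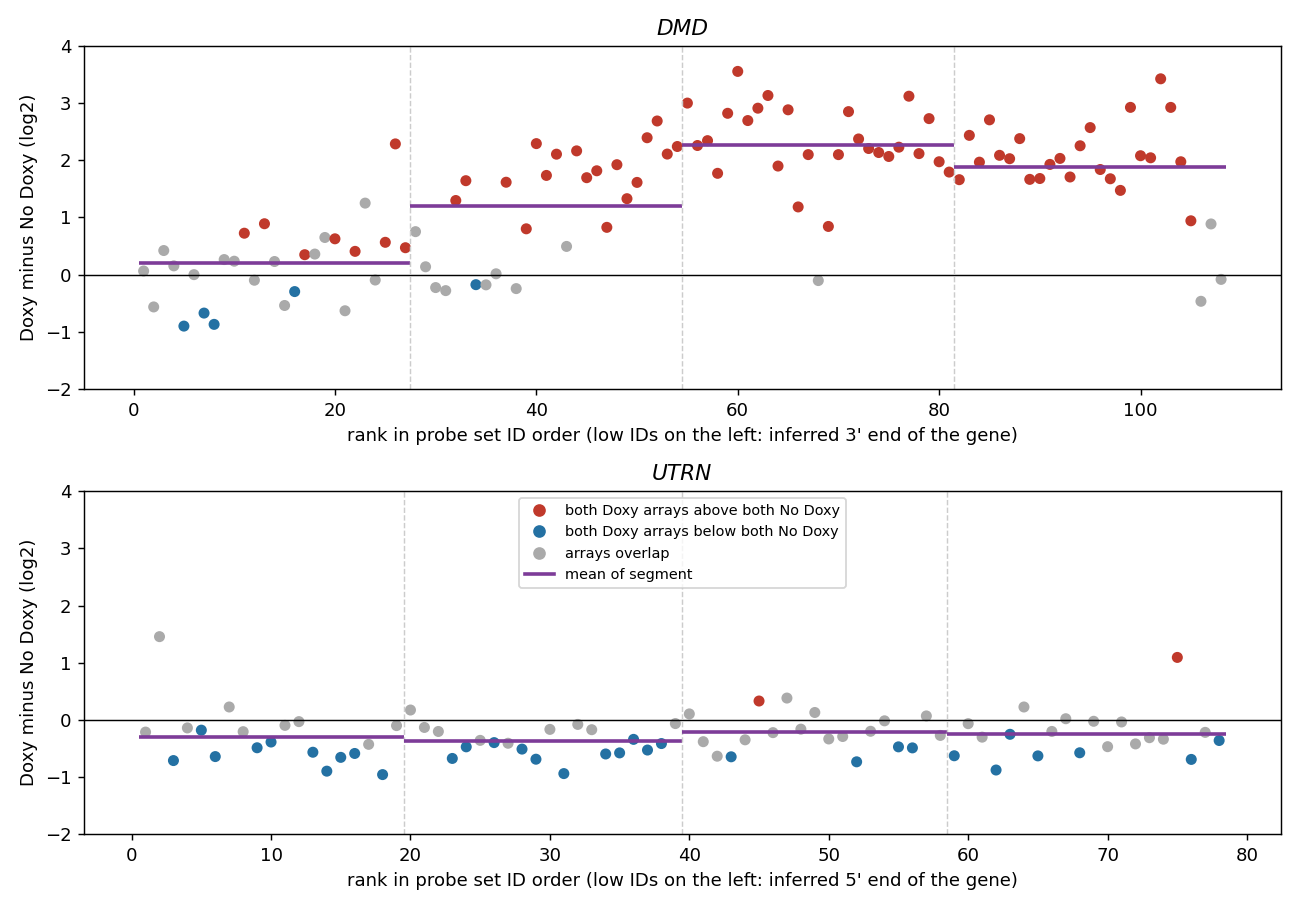
Doxy minus No Doxy log2 difference (y axis) of each of the 108 DMD probe sets (top) and 78 UTRN probe sets (bottom), in ID order on the x axis. Colours show whether both Doxy arrays lay above, below or among the No Doxy arrays, and purple lines are means of segments. DMD climbs to 2.26 in its segment 3, whereas UTRN stays between -0.38 and -0.22 in all 4.

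UTRN, encoding utrophin, had a gene value of 6.71 and 6.40 in the Doxy arrays, against 6.89 and 6.79 in the No Doxy arrays. Both Doxy arrays were lower, by a small distance. The difference was -0.29 (SE 0.19), with 21.8% of all genes having both Doxy arrays below both No Doxy arrays. It was -0.13 without Doxy replicate 2, -0.44 without Doxy replicate 1 and -0.45 with centred arrays. Of its 78 probe sets, 67 had a negative difference, 32 had both Doxy arrays below both No Doxy arrays and 2 had both above. The shares below and above were 41.0% and 2.56%, against 19% and 26.4% of all probe sets. The shift was even along the gene, at -0.29, -0.38, -0.22 and -0.25 for 4 segments from the inferred 5′ end. Its middle split gave a gap of 0.10 (rank 374 of 609). The lowest probe set, 2929230, read 6.89 and 6.59 with Doxy, against 7.45 and 7.94 without, a difference of -0.96. The highest, 2929201, read 7.66 and 6.53 with Doxy, against 6.85 and 4.42 without. Its difference of 1.46 came with overlapping groups.

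DAG1 encodes dystroglycan, the receptor that both dystrophin and utrophin hold from the inside. It read 6.53 and 6.69 in the Doxy arrays, against 6.61 and 6.50 in the No Doxy arrays. The groups overlapped, with a difference of 0.06 (SE 0.18) that turned to -0.10 when arrays were centred and to -0.08 after quantile normalization. Of its 14 probe sets, 4 lay above (28.6%, against 26.4% of all probe sets), 1 below (7.14%, against 19%) and 9 overlapped. The highest, 2622125, read 4.79 and 4.09 with Doxy, against 3.70 and 3.02 without, a difference of 1.08. The lowest, 2622132, read 5.77 and 6.33 with Doxy, against 6.64 and 7.26 without, a difference of -0.90.

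Of the sarcoglycans, SGCB was the lowest relative to No Doxy. β-sarcoglycan, which it encodes, is a core subunit of the sarcoglycan group in muscle and other tissues. It read 7.33 and 7.39 in the Doxy arrays, against 7.82 and 7.89 in the No Doxy arrays. Both Doxy arrays were lower, as in 21.8% of all genes, and the replicates of each group were close together. The difference was -0.50 (SE 0.17). SGCB passed the adjusted threshold only where arrays were centred on their medians, and its difference was then -0.66. Of its 11 probe sets, 7 lay below (63.6%, against 19% of all probe sets), 1 above (9.09%, against 26.4%) and 3 overlapped. Probe set 2768984 was the lowest, at 6.57 and 6.82 with Doxy, against 7.60 and 7.83 without, a difference of -1.02. The highest, 2768985, read 4.39 and 4.53 with Doxy, against 4.11 and 4.26 without, a difference of 0.28.

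SGCD, encoding δ-sarcoglycan of striated and smooth muscle, was dim. Its value was 2.67 and 2.60 in the Doxy arrays, against 2.99 and 2.99 in the No Doxy arrays. Both Doxy arrays were lower, as in 21.8% of all genes, with a difference of -0.36 (SE 0.17). Of its 19 probe sets, 14 were among the dimmest 25% of the array. In all, 8 probe sets lay below (42.1%, against 19% of all probe sets) and 0 above (against 26.4%). The lowest, 2837114, read 1.80 and 1.79 with Doxy, against 3.0 and 2.98 without, a difference of -1.19 at dim signal. The highest, 2837129, had a difference of 0.29 with overlapping groups.

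SGCE encodes ε-sarcoglycan, the subunit found widely outside muscle. It read 3.38 and 3.0 in the Doxy arrays, against 3.18 and 3.27 in the No Doxy arrays, and the groups overlapped. The difference of -0.03 (SE 0.20) became 0.22 when dim probe sets, 13 of its 18, were left out. Single probe sets went both ways, 5 above (27.8%) and 4 below (22.2%). These shares were near those over all probe sets, 26.4% and 19%. Probe set 3061812 read 4.85 and 5.45 with Doxy, against 4.16 and 3.68 without, a difference of 1.23. The dim probe set 3061820 read 1.69 and 2.03 with Doxy, against 3.19 and 3.13 without, a difference of -1.30.

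On the inner face, SNTB1 encodes β1-syntrophin, an adaptor that binds dystrophin and its relatives. It read 4.24 and 4.10 in the Doxy arrays, against 4.30 and 4.37 in the No Doxy arrays. Both Doxy arrays were lower, as in 21.8% of all genes, by a margin smaller than the gap between them. The difference was -0.17 (SE 0.17). It was -0.03 with median polish, -0.09 without Doxy replicate 2 and -0.33 with centred arrays. Of its 15 probe sets, 2 lay below (13.3%, against 19% of all probe sets), 1 above (6.67%, against 26.4%) and 12 overlapped. The extremes were 3150947, with -1.01 and overlapping groups, and the dim 3150944, with 0.41.

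DTNA encodes α-dystrobrevin, which binds dystrophin and syntrophin and is best known from muscle and brain. It read 2.57 and 2.41 in the Doxy arrays, against 2.45 and 2.59 in the No Doxy arrays. The groups overlapped at a difference of -0.02 (SE 0.18), and 36 of its 43 probe sets were dim. Without the dim ones the difference was 0.21. Probe set 3784302, the lowest at -1.32, read 1.86 and 1.64 with Doxy, against 1.61 and 4.53 without, so 1 No Doxy array set its value. The highest, 3784237, had 0.91 at dim signal.

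DTNB, encoding β-dystrobrevin of non-muscle tissues, read 6.22 and 6.24 in the Doxy arrays, against 6.06 and 6.05 in the No Doxy arrays. Both Doxy arrays were higher, with close replicates, where 30.5% of all genes had both Doxy arrays above both No Doxy arrays. The difference was 0.17 (SE 0.17), and it shrank to 0.01 with centred arrays. Of its 27 probe sets, 8 (29.6%) lay above, 5 (18.5%) below and 14 overlapped. Over all probe sets the shares were near these, 26.4% and 19%. The highest, 2544843, read 3.91 and 4.03 with Doxy, against 2.32 and 3.15 without, a difference of 1.24. The lowest, 2544865, had -0.73 at dim signal.

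Of 11 other genes of the complex, 8 had a value. 1 was called higher and 1 lower, where 5.67% of all genes were called higher and 1.7% lower, and 6 did not pass. The median was -0.08. SNTG1, encoding γ1-syntrophin, read 5.27 and 5.70 in the Doxy arrays, against 4.16 and 4.70 in the No Doxy arrays. It rose by 1.05 (SE 0.24, adjusted p = 0.0407 from limma). SSPN encodes sarcospan, the small membrane protein that joins the sarcoglycans. It read 5.20 and 4.47 with Doxy, against 5.79 and 6.03 without, and fell by 1.08 (SE 0.26, adjusted p = 0.0447 from limma). In both genes the groups did not overlap, where both Doxy arrays were above in 30.5% of all genes and below in 21.8%. Each call was met in 6 of 14 settings. That of SNTG1 was lost when any 1 of the 4 arrays was left out, and that of SSPN without Doxy replicate 2 or either No Doxy array. The SSPN difference was -0.71 without Doxy replicate 2 and -1.62 with the median of its probe sets. SNTB2, another syntrophin gene, differed by 0.31 and SGCA, encoding α-sarcoglycan, by -0.32, and neither passed the test.

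Of 18 genes that build the sugar chain by which dystroglycan binds laminin, 13 had a value. 1 was called higher and 0 lower, near the shares over all genes (5.67% and 1.7%), with a median of 0.01. DOLK, the kinase that makes the lipid carrier on which mannose is delivered, read 6.46 and 6.60 in the Doxy arrays, against 5.65 and 5.71 in the No Doxy arrays. It rose by 0.85 (SE 0.17, adjusted p = 0.0298 from limma), a call met in 6 of 14 settings and lost when any 1 array was left out. With the median of its probe sets the DOLK difference was only 0.15. POMGNT1 (0.83) and POMT1 (0.60), both enzymes of the mannose core, and RXYLT1 (-0.61), a xylosyltransferase, did not pass. In other settings POMGNT1 passed in 3 and RXYLT1 in 4 of 14.

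Among the ligands of dystroglycan and their relatives, 12 of 14 had a value. 0 were called in either direction, near the shares over all genes (5.67% higher and 1.7% lower), with a median of -0.02. LAMB1, the laminin β1 chain, had the largest difference. It read 6.42 and 6.90 in the Doxy arrays, against 7.44 and 7.59 in the No Doxy arrays, a difference of -0.85 (adjusted p = 0.0512 from limma). It passed in 4 of 14 settings. LAMB2 (0.50), SLIT2 (-0.21) and NRXN3 (-0.19) did not pass.

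All 16 listed cytoskeletal and signalling partners had a value. 1 was called higher and 0 lower, near the shares over all genes (5.67% and 1.7%), and the median was 0.19. ANK3, encoding ankyrin-G, which holds dystrophin and dystroglycan at the membrane in muscle, read 6.44 and 6.74 in the Doxy arrays, against 5.26 and 5.92 in the No Doxy arrays. It rose by 1.00 (SE 0.25, adjusted p = 0.0498 from limma), at the edge of the threshold, and passed in 4 of 14 settings, none of which left out an array. TLN1 (0.71), encoding talin, ANK2 (0.69), encoding ankyrin-B, and KRT19 (-0.81), a keratin that binds dystrophin, did not pass. In other settings ANK2 and KRT19 each passed in 2 and TLN1 in 1 of 14.

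**Figure D4:**
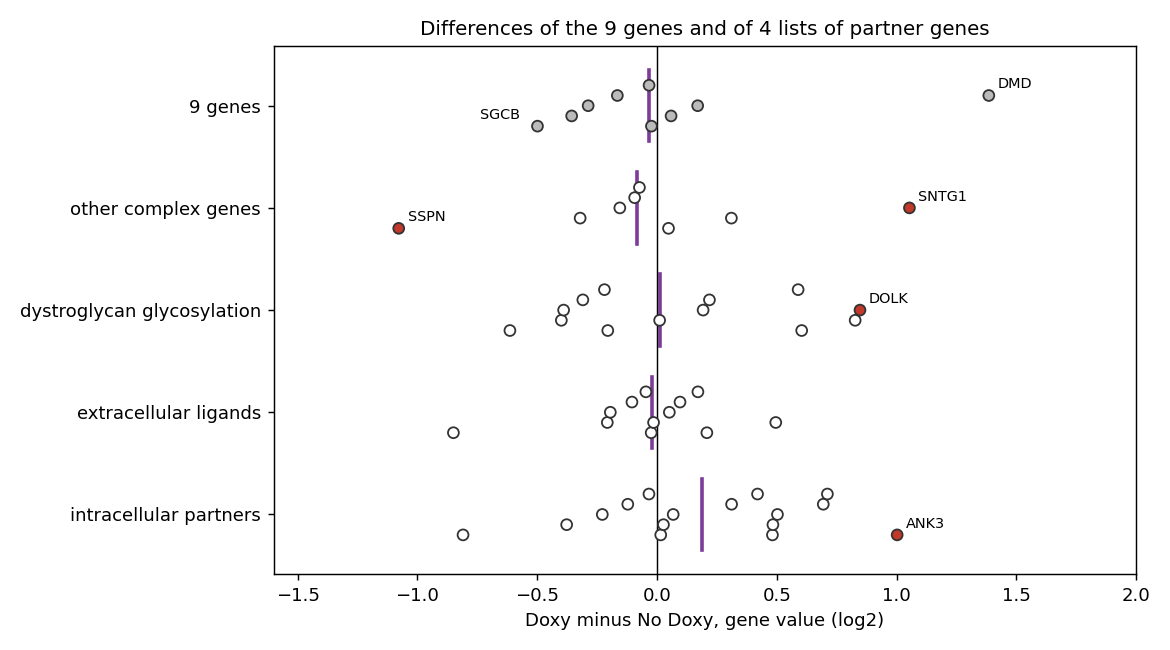
Doxy minus No Doxy log2 difference of gene values (x axis) for the 9 genes (grey) and for 4 lists of partner genes. Red points passed the adjusted threshold, white points did not, and purple bars are medians. DMD stands at 1.39, SNTG1 at 1.05 and SSPN at -1.08, and list medians lie between -0.08 and 0.19.

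Of 11252 genes with at least 10 probe sets, those whose 4 centred array values lay nearest to those of DMD were ADHFE1, CAPRIN2, COG5, PRKG1 and SIAE. The root mean square distance was 0.06, 0.07, 0.09, 0.09 and 0.10 log2 units in that order, over 4 arrays. ADHFE1, a mitochondrial oxidoreductase gene, read 7.24 and 6.67 in the Doxy arrays, against 5.62 and 5.63 in the No Doxy arrays. With 4 arrays, such likeness says only that these genes separated the groups by a similar amount.

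Markers of muscle were checked because dystrophin is best known from it. Of 13 skeletal muscle genes, 1 was called higher and 0 lower, near the shares over all genes (5.67% and 1.7%), with a median of 0.03. TNNT1, a troponin gene of slow muscle, was the called one, at 7.07 and 7.33 with Doxy, against 6.42 and 6.46 without. Its adjusted p of 0.0457 from limma was near the threshold. Like every limma call, this one was not met by a t-test of each gene, which called 0 genes. The list averaged 4.09 and 4.08 in the Doxy arrays, against 3.99 and 3.87 in the No Doxy arrays, and 4 of its genes lay in the lowest 25% of all genes. In 5 of the 13 genes both Doxy arrays lay above both No Doxy arrays, and in 1 below. Over all genes, 30.5% lay above and 21.8% below in this way. Besides TNNT1 the 5 muscle genes above were MB (0.59), CKM (0.47), MYH3 (0.33) and DES (0.26), none of which passed. MYOD1, a master regulator of muscle, read 3.88 and 3.81 with Doxy, against 4.23 and 3.75 without, and the groups overlapped. Of 5 smooth muscle genes, ACTA2 was called lower (adjusted p = 0.0184 from limma), where 1.7% of all genes were. It read 4.15 and 4.20 with Doxy, against 6.23 and 5.37 without. The list averaged 4.23 and 4.50 with Doxy, against 4.68 and 4.61 without, but its median was only -0.03. In the other smooth muscle genes the groups overlapped, SMTN (0.29), CNN1 (-0.03), TAGLN (-0.03) and MYH11 (-0.01). Of the neuron and glia (5 measured) and leukocyte (4 measured) lists 0 genes were called. Of 6 fibroblast genes LUM, encoding lumican, was called higher (adjusted p = 0.039 from limma). In 4 of the other fibroblast genes the Doxy arrays were the lower pair without overlap, where 21.8% of all genes were. These were COL3A1 (-0.65), COL1A2 (-0.12), PDGFRA (-0.11) and DCN (-0.08), and none of them passed. In COL1A1 (0.22) the Doxy arrays were the higher pair without overlap, and it did not pass either. The fibroblast list had a median of -0.09 and averaged 6.87 and 6.87 in the Doxy arrays, against 6.91 and 6.82 in the No Doxy arrays. Of 6 ovarian epithelium genes, EPCAM, encoding a cell adhesion protein of epithelia, was called higher (adjusted p = 0.00298 from limma), where 5.67% of all genes were. It read 6.31 and 6.24 with Doxy, against 4.19 and 4.16 without. That list averaged 5.32 and 5.30 in the Doxy arrays, against 5.0 and 4.73 in the No Doxy arrays, with a median of 0.19. KRT18 (0.55) and PAX8 (0.28) were higher without overlap, and KRT8 (-0.38) was lower without overlap. KRT7 (0.11) and WT1 (-0.01) overlapped, and none of these 5 passed. The part of these markers in the DMD difference was not tested.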

How the data were processed

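Total RNA of 4 samples was hybridised to Affymetrix Human Exon 1.0 ST arrays. The deposited values are log2 RMA signals per core probe set, made by the authors with Expression Console per the labels, and Partek 6.6 is named in the submitters' processing notes. The genome build behind the probe sets was not given in the sources used here. Whether and how the deposited log2 values were centred between arrays is unknown, as array medians differed.

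Of 287329 probe sets, 261273 carried 1 symbol, 9155 several and 16901 none. Only the first kind was used. Of 16941 symbols, 14546 were current, 2276 were updated through RefSeq and 119 kept. Gene values were means over probe sets, tested with lmFit and eBayes of limma 3.58.1 in R 4.3.3 for the 16634 genes with at least 2 probe sets, with Benjamini-Hochberg adjustment and a threshold of 0.05, and splicing with diffSplice. Arrays give no counts, so their number limits the precision. A probe set was dim below the 25th percentile of mean signal. The fit was tested on simulated data.

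The genes and lists were chosen with earlier results of these data known. Named were the 9 genes, SRSF3, up to 4 genes of each pathway list with the smallest p, the 5 genes nearest to DMD, and extreme probe sets (3 highest and 3 lowest in DMD, 1 each in the others). Marker lists covered skeletal and smooth muscle, neuron and glia, leukocyte, fibroblast and ovarian epithelium. Alternatives were other gene summaries, filters, scalings, priors, the methods' t-test, a replicate block and leaving out each array. The middle split of DMD and the segments of UTRN were added after seeing the data. List genes without a value were not analysed here. Equally numbered arrays deviated together at r = 0.127 over 2 pairs, which does not establish a pairing.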

Additional observations from a re-analysis of the deposited data

How the results depend on the processing

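DMD stayed higher in the 11 settings of its value (1.18 to 1.59), and UTRN (-0.45 to -0.13), SGCB (-0.76 to -0.46), SGCD (-0.52 to -0.31) and SNTB1 (-0.33 to -0.03) stayed lower. DAG1 (-0.10 to 0.23), SGCE (-0.22 to 0.22) and DTNA (-0.19 to 0.21) changed sign. With 2 arrays a group, counts of calls moved widely. The 943 genes called higher became 164 with the median of probe sets, 546 with median polish, 586 without dim probe sets, 1763 with a replicate block and 0 by the methods' t-test, and ranged over 0 to 584 when 1 array was left out. The 282 called lower became 76 with the median, 956 with centred arrays, 609 after quantile normalization, 658 with the replicate block and 0 by the t-test (0 to 96 with 1 array left out). At an unadjusted p under 0.05, the t-test called 2328 genes. Without No Doxy replicate 1 limma called 0 genes (3079 unadjusted), and without No Doxy replicate 2 likewise 0 (2571 unadjusted). A lone array was assumed to vary like the other group. DMD was called in every setting except the median of probe sets, the t-test and those without a No Doxy array, where 0 of the 9 were. Centring added 1 lower call, SGCB.

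Of the other complex genes, SNTG1 was not called (0 higher) with the median, median polish, a minimum of 1 probe set, the t-test or any array left out (0 to 0). SSPN was not called (0 lower) with the median, median polish, no dim probe sets, a minimum of 1 probe set or the t-test, and with 1 array left out the count was 0 to 1. Of the glycosylation genes, 0 were called higher with the median, median polish, no dim probe sets or the t-test, 2 with centring or the replicate block, and 0 to 1 with 1 array left out. 1 was lower with median polish, centring, quantile normalization or the block. Of the ligands, 1 was lower with centring, quantile normalization, the trended prior or the block. Of the intracellular partners, 0 were higher with the median, median polish, no dim probe sets, a minimum of 1 probe set, quantile normalization, the t-test or 1 array left out (0 to 0), 2 with the trended prior and 3 with the block. 1 was lower with centring or the block. diffSplice's 409 genes became 892 by its Simes test, 205 with the block and 20 to 4013 with 1 array left out, and 1 to 5 of the 9 genes were then called. Segment 3 of DMD differed by 2.48 without dim probe sets, and segment 1 by 0.033 with centring and 0.078 after quantile normalization.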
